A study of Mus musculus with 12 samples.

Results

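The RNA of extracellular vesicles was set beside that of whole lung in the mutant-labelled samples, which make up 4 of the 12 libraries of the study. Both sources came from adult C57BL/6 mice. Mutant mice are labelled ColcreER; Tbx4flox/flox, a Col-driven Cre recombinase that acts after tamoxifen, with floxed alleles of the T-box transcription factor Tbx4. The series design text has Tbx4creER; Ghrflox/flox in its place, with the growth hormone receptor Ghr floxed, so the samples are called mutant-labelled here. The vesicles came from the medium of lung mesenchymal cells cultured for 48 hours, and the lung samples were whole organs. Mutant-labelled samples gave 2 vesicle and 2 lung libraries, and wild-type samples, used only for reference, gave 4 of each. Nothing in the labels says that libraries of a group came from separate animals or cultures, so the spread between them may be technical. The members were chosen by label and by gene identifier. All 8096 genes of the vesicle table were also among the 21950 genes of the lung table, and these shared genes were ranked in each library.

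Extracellular vesicles are membrane particles that cells shed, either by budding from the surface or by release from endosomes. They carry proteins and RNA of the cell that made them, whole or in pieces, together with RNA that clings to their outside. In the lung, mesenchymal cells (fibroblasts, myofibroblasts, smooth muscle and pericytes) build the matrix of airways and alveoli and send growth factors to the epithelium. Whole lung holds these cells among epithelium, endothelium and blood cells, so a difference between the sources can come from which cells were sampled, from culture or from what enters vesicles. These cannot be told apart here, nor can fewer cells of a type and less RNA per cell in whole lung.

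Levels are RPKM values, which divide the reads of a gene by its exon length in kilobases and by the megareads (M) of the library. The vesicle and lung tables were normalised separately, so no RPKM was tested across them. Each gene was instead given its percentile rank within a library, and the gap is the vesicle percentile minus the lung percentile in percentile points. A gene is called vesicle-higher when its lower vesicle rank lay at least 25 points above its higher lung rank, and lung-higher in the reverse case. Of the 8096 genes, 678 (8.37%) were vesicle-higher, 776 (9.58%) were lung-higher and 6642 were neither. Just inside the limit lay Aida, at 25.049 points, and Pdpn, exactly at the limit, and just outside lay Ipo7 and Gm21972, both at 24.988. Without the limit, all vesicle ranks exceeded all lung ranks in 2764 genes (34.1%), and the reverse held in 2530 (31.2%).

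Several genes with the largest vesicle-higher gaps encode secreted signals. Cck (cholecystokinin, a peptide hormone best known from gut and brain), Dio2 (the deiodinase that activates thyroid hormone), Inhba (a subunit of activin) and Grem1 (gremlin, a secreted BMP antagonist) led the 12 genes with the largest gaps. Their promoters are shown because these RNAs filled the top ranks in vesicles and the bottom ranks in lung. The sequences are RefSeq windows of 300 bases on GRCm38.p6, 250 before and 50 after the start of the gene, 5′ to 3′ on the strand of the gene, at chr9:121495645-121495944 (minus strand) for Cck, chr12:90738989-90739288 (minus) for Dio2, chr13:16011601-16011900 (plus) for Inhba and chr2:113758599-113758898 (minus) for Grem1. Capitals mark matches to the TATA box letters TATAAA, the cyclic AMP response element TGACGTCA and the AP-1 letters TGANTCA, searched on both strands.
Cck: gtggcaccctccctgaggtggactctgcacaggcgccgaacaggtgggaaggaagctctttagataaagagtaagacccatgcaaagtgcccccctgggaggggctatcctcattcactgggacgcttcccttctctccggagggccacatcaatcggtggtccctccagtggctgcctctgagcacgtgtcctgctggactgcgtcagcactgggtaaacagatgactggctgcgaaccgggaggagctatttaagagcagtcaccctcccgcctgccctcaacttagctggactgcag
Dio2: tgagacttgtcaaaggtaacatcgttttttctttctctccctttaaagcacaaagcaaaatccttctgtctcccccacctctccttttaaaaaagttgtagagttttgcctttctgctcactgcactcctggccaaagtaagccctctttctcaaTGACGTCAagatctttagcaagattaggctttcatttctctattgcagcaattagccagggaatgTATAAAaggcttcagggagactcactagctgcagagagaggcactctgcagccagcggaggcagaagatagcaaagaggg
Inhba: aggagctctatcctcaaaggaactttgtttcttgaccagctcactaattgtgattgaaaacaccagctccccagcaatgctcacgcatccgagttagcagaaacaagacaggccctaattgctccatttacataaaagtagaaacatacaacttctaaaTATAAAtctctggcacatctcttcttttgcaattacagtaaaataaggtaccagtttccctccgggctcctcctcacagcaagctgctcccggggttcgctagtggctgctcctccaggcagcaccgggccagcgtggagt
Grem1: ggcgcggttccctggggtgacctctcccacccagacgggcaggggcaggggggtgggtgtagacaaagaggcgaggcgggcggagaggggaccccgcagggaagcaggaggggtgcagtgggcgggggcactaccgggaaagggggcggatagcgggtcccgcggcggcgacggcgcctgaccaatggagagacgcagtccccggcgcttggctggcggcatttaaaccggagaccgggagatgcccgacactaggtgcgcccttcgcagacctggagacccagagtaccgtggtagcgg
TATAAA stood at position -30 from the start of Dio2 and at -91 from that of Inhba, and TGACGTCA at -95 of Dio2. The windows of Cck and Grem1 held no match. Among all 32851 promoters of the table, 13.6% held TATAAA, 1.79% held TGACGTCA and 7.81% held TGANTCA. Of the 8 leading genes with a promoter in the table, 3 held TATAAA, 1 held TGACGTCA and 1, Igf1, held TGANTCA.

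Cck stood at 499 and 950.02 RPKM in vesicle libraries 1 and 2, and at 0 and 0.0338 RPKM in lung libraries 1 and 2. The lung values rest on 0 and about 1.2 reads by annotated length, against about 738 and 1351 reads in vesicles. Its ranks were 99.0 and 99.3 in vesicles and below 1 in both lungs. Grem1 had 735 and 6067 RPKM in vesicles and 1.995 and 0.977 RPKM in lung. It ranked at 99.4 and 99.9 in vesicles and at 8.51 and 3.90 in lung, so the groups stood far apart although the vesicle libraries differed. Dio2 had 105 and 227 RPKM in vesicles and 0.393 and 0.434 RPKM in lung. Inhba had 155 and 247 RPKM in vesicles and 1.39 and 0.527 RPKM in lung. For both genes every vesicle value lay above every lung value. On mm9 these genes lie at chr9:121398943-121404807 (Cck), chr12:91962994-91976878 (Dio2), chr13:16103684-16119044 (Inhba) and chr2:113586321-113598803 (Grem1).

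The remaining 8 of the 12 also had vesicle and lung ranks far apart. Rspo3, an R-spondin that strengthens Wnt signals, had 87.8 and 85.96 RPKM in vesicles and 1.09 and 0.871 RPKM in lung. Gdf11, a ligand of the TGF-beta family, had 65.6 and 81.2 RPKM in vesicles and 0.8104 and 1.23 RPKM in lung. These are further secreted signals with close agreement between the vesicle libraries. Tbx15, a T-box factor of limb and skin mesenchyme, had 76.8 and 35.5 RPKM in vesicles and 0.006101 and 0 RPKM in lung. Akr1c18, the enzyme that inactivates progesterone, had 37.03 and 33.1 RPKM in vesicles and was at 0 in both lungs. Igf1, insulin-like growth factor 1, had 91.6 and 68.5 RPKM in vesicles and 2.92 and 2.53 RPKM in lung. Arhgap11a, Zmat3 (a p53 target that binds RNA) and Gm10126 completed the 12. The mean gaps of the 12 ran from 81.1 to 98.8 points, and in wild type from 25.1 to 99.0 points. Wild-type libraries gave the same call for 11 of them. The exception was Akr1c18, at 0.3699, 0, 7.69 and 0.766 RPKM in the 4 wild-type vesicle libraries.

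**Figure D1:**
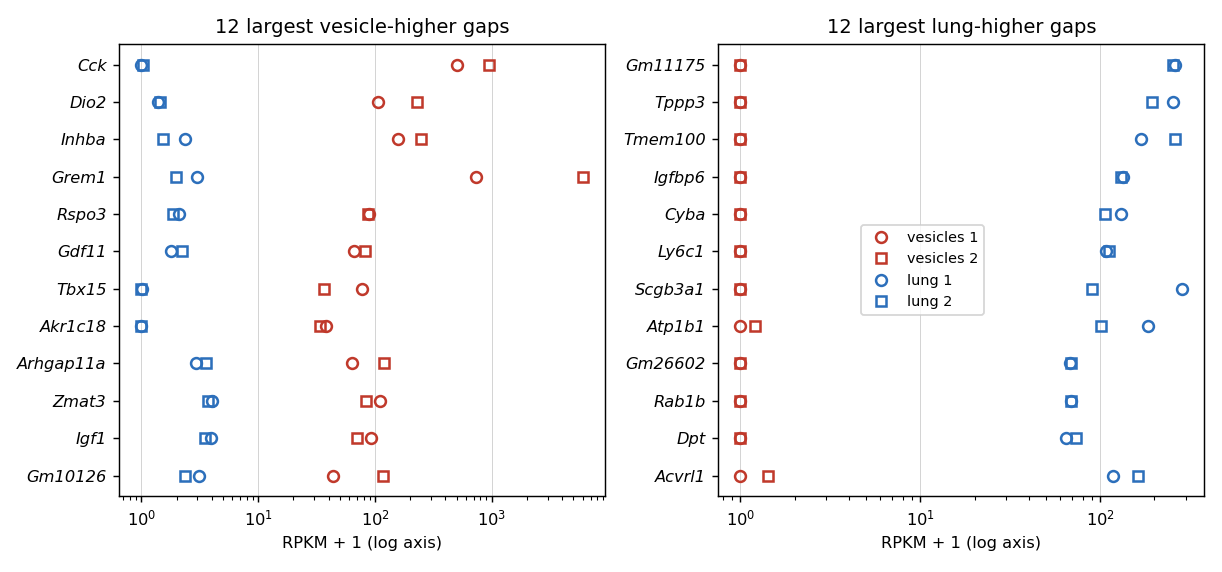
RPKM + 1 on a log axis for the 12 genes with the largest vesicle-higher gaps (left) and the 12 with the largest lung-higher gaps (right), with 1 symbol for each of the 2 mutant-labelled vesicle libraries (red) and the 2 mutant-labelled lungs (blue). Red and blue symbols do not overlap for any of these genes, and 10 of the 12 on the right were listed at 0 in both vesicle libraries.

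The largest lung-higher gaps rested on zeros. Of these 12 genes, 10 were listed at 0 in both vesicle libraries, and lung RPKM ran from 63.8 to 285 in lung library 1 and from 67.5 to 260 in lung library 2. Tppp3, a tubulin-polymerising protein of ciliated cells, was at 0 in both vesicle libraries and at 252 and 193 RPKM in lung. Tmem100, known from lung endothelium, was at 0 in both vesicle libraries and at 167 and 260.3 RPKM in lung. Scgb3a1, a secretoglobin of airway secretory cells, was at 0 in both vesicle libraries and at 285 and 89.3 RPKM in lung. For all 3 the groups did not overlap, and Scgb3a1 differed between the lungs. Igfbp6, a binding protein of insulin-like growth factors, was at 0 in both vesicle libraries and at 133 and 129 RPKM in lung. Dpt (dermatopontin, a matrix protein of fibroblasts) was at 0 in both and at 63.8 and 72.6 RPKM in lung, whereas its 4 wild-type vesicle values were 17.1, 13.9, 28.3 and 12.6 RPKM. Rab1b, a GTPase that every cell uses for transport out of the endoplasmic reticulum, was also at 0 in both and at 67.5 RPKM in both lungs. The splicing factor gene U2af2, named after its values were seen, was likewise at 0 in both vesicle libraries and at 56.6 and 61.02 RPKM in lung, so a listed 0 cannot be read as absence. Gm11175, the gene with the largest gap (0 in both vesicle libraries, 258 and 252 RPKM in lung), lies at chr8:73223437-73223979 on mm9, inside Jund on the opposite strand. Whether counting used strand is not given in the sources used here, so their reads cannot be told apart. Cyba, Ly6c1, Atp1b1, Gm26602 and Acvrl1 completed the 12, of which wild-type libraries gave the same call for 6.

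**Figure D2:**
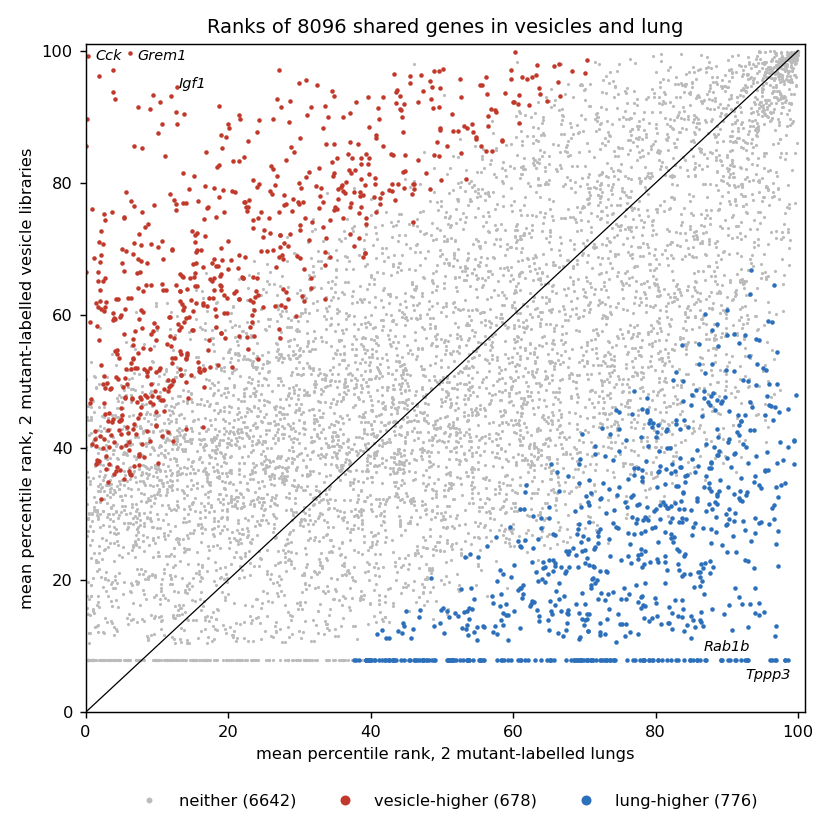
Mean percentile rank of the 8096 shared genes in the 2 mutant-labelled lungs (horizontal axis) and the 2 mutant-labelled vesicle libraries (vertical axis), with 678 vesicle-higher genes in red, 776 lung-higher genes in blue and 6642 others in grey. The row of points near the bottom holds the genes listed at 0 in both vesicle libraries, and the dense corner at the upper right holds genes at high rank in both sources.

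The vesicle libraries were shallow and differed from each other. They held 1.75 and 1.68 M reads in genes, against 43.7 and 43.2 M in the mutant-labelled lungs and 4.20 to 5.41 M in wild-type vesicles. A count of 0 therefore allows 1.72 and 1.79 RPKM in the vesicle libraries for a gene of 1 kilobase, from 3 reads and for counting error only. Vesicle library 1 had 1795 of the shared genes at 0 and vesicle library 2 had 787, whereas the lungs had 21 and 16. Ranks of the 2 vesicle libraries had a Spearman correlation of 0.399 across genes, and ranks of the 2 lungs 0.981. Wild-type vesicle libraries correlated among themselves at 0.605 to 0.687. Between vesicles and lung the correlation was 0.296 to 0.306 for vesicle library 1 and 0.425 to 0.427 for vesicle library 2. The vesicle libraries differed by at least 25 points in 3236 genes, against 1922 to 2286 genes in pairs of wild-type vesicle libraries and 38 genes in the lungs. In 513 genes one vesicle library was at 0 and the other at 10 RPKM or more, against 89 to 154 genes in wild-type vesicle pairs. Pcp4l1, chosen after its values were seen, had 118 RPKM in vesicle library 1 and 0 in vesicle library 2. Smim24, chosen in the same way, had 0 and 78.4 RPKM. Without vesicle library 1 the calls were 1476 vesicle-higher and 1452 lung-higher genes, and without vesicle library 2 they were 1714 and 1705.

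**Figure D3:**
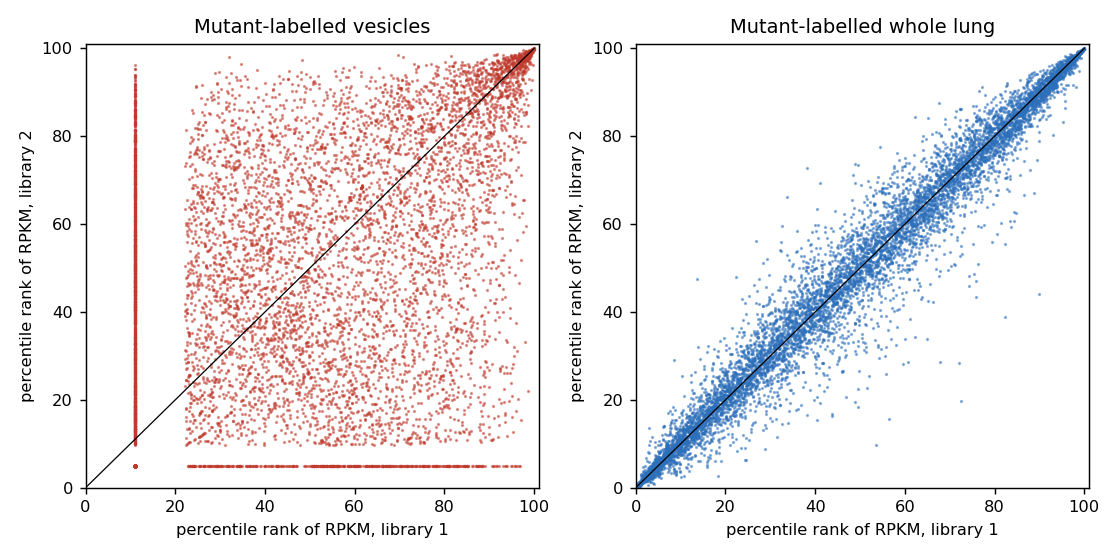
Percentile rank of each shared gene in library 1 (horizontal axis) and library 2 (vertical axis) of the mutant-labelled vesicles (left, red) and the mutant-labelled lungs (right, blue), with the line of equal rank. The lung points lie along the line, and the vesicle points fill the square, with a column at percentile 11.1 and a row at 4.87 for genes listed at 0 in 1 library.

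Annotated exon length moved with the calls. Genes were put in 5 classes of equal size by exon length. In the class with the shortest exons (75 to 1928 bases), 4.23% were vesicle-higher and 14.7% lung-higher. In the class with the longest (6272 to 30730 bases), 15.7% were vesicle-higher and 2.72% lung-higher. Genes at 0 in vesicle library 1 numbered 573 in the shortest class and 109 in the longest. Among genes of at least 2000 bases, a limit chosen after seeing the data, 533 were vesicle-higher and 633 lung-higher of 6232.

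The targeted genes could be checked in part. Tbx4 was not listed in the vesicle table, and stood at 20.9 and 36.8 RPKM in the mutant-labelled lungs and at 29.7, 26.1, 28.95 and 30.1 RPKM in the wild-type lungs. The mutant-labelled values lay on both sides of the wild-type ones. Ghr had 13.1 and 11.2 RPKM in mutant-labelled vesicles and 21.3, 19.8, 23.6 and 25.1 RPKM in wild-type vesicles. These groups did not overlap, but the genotype difference in vesicles relative to lung was -0.67 on the log2(RPKM + 1) scale (SE 0.903, 95% interval -2.62 to 1.27, limma adjusted p = 0.808). Ghr in lung was 9.83 and 12.9 RPKM in mutant-labelled and 13.3, 12.7, 11.8 and 12.9 RPKM in wild-type samples. The values summed over all exons, so they would not show a deletion of part of a gene.

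Among the 8 most abundant genes of the vesicles, 4 were mitochondrial (mt-Co1, mt-Cytb, mt-Nd4 and mt-Nd1), beside Gm20594, Lars2, Spp1 and Fth1. Gm20594 had 60259 and 52047 RPKM in vesicles and 134 and 120.1 RPKM in lung. RefSeq gives it the synonym Mtrnr2l and places it on chromosome 6, and mm9 holds a stretch on chromosome 6, at chr6:79767910-79768341, that matched the mitochondrial 16S rRNA gene mt-Rnr2 at 88.5% over 435 aligned positions. Whether its reads came from the mitochondrial rRNA was not tested. Lars2, the mitochondrial leucyl-tRNA synthetase, had 8110 and 6974 RPKM in vesicles and 113 and 104 RPKM in lung. Because lung ranks of Gm20594 and Lars2 were already high, their gaps were only 3.38 and 3.93 points, and wild-type vesicles had 57115 to 81733 RPKM of Gm20594 and 5028 to 8580 RPKM of Lars2. mt-Co1, a subunit of cytochrome c oxidase, had 38227 and 15629 RPKM in vesicles and 10616 and 8002 RPKM in lung. All 13 protein genes of mitochondrial DNA ranked near the top in both sources, with a median gap of -0.1 points. Fth1, the ferritin heavy chain, had 7287 and 4691 RPKM in vesicles and 1888 and 1690 RPKM in lung. In the lungs the 8 highest shared genes were all mitochondrial (mt-Atp6, mt-Co1, mt-Co2, mt-Co3, mt-Cytb, mt-Nd4, mt-Nd1 and mt-Nd2). The 100 genes with most reads took 42.9% and 44.6% of the reads of the vesicle libraries and 24.1% and 20.4% of those of the lungs.

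Markers of smooth muscle and myofibroblasts separated the vesicle libraries. Of 13 listed markers none was called in either direction, beside 8.37% and 9.58% of all genes. Without vesicle library 1, 1 was vesicle-higher and 1 lung-higher, beside 1476 and 1452 of the 8096 genes. Without vesicle library 2, 3 were lung-higher, beside 1705 of the 8096 genes. Acta2, smooth muscle actin, had 203 and 1537 RPKM in vesicles and 168 and 143 RPKM in lung. Tagln (transgelin) had 27.1 and 329 RPKM in vesicles and 122 and 113 RPKM in lung. Myh11, the smooth muscle myosin heavy chain, had 0.778 and 47.8 RPKM in vesicles and 52.3 and 39.9 RPKM in lung. Cnn1 (calponin) had 0.726 and 74.1 RPKM in vesicles and 34.98 and 28.8 RPKM in lung. The lungs lay between the vesicle libraries for Tagln and Cnn1. Cald1 (caldesmon) was high in both vesicle libraries, at 509.9 and 959.9 RPKM, with 26.7 and 30.6 RPKM in lung. The median over the list was 27.1 RPKM in vesicle library 1 and 276 in vesicle library 2, against 106 to 217 in the wild-type vesicle libraries.

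General mesenchymal markers were well represented. Of 18, 17 were in the vesicle table, with 1 vesicle-higher (5.88%, beside 8.37% of all genes), 3 lung-higher (17.6%, beside 9.58%) and a median gap of -10.1 points against 1.1 over all shared genes. Without vesicle library 1 or 2 the lung-higher count was 4 or 5, beside 1452 or 1705 of the 8096 genes. Without vesicle library 2 the median gap was -3.17 points. Sparc, a collagen-binding matrix protein, had 833 and 1773 RPKM in vesicles and 324 and 462 RPKM in lung. Vim (vimentin) had 448 and 701 RPKM in vesicles and 173 and 201 RPKM in lung. Both stood near the top of every library. Fbln2 (fibulin 2), the vesicle-higher member, had 19.97 and 14.99 RPKM in vesicles and 6.69 and 3.24 RPKM in lung. Dpt, Col6a1 and the receptor gene Pdgfrb were lung-higher. Dcn (decorin) differed between the vesicle libraries, at 0.5499 and 311 RPKM, with 100.02 and 46.1 RPKM in lung and 164 to 357 RPKM in wild-type vesicles. Of 16 alveolar fibroblast markers, 10, Tcf21, Npnt, Itga8 and Inmt among them, were not listed in vesicles. Pdgfra, the receptor that defines these cells, had 0.179 and 5.39 RPKM in vesicles and 21.2 and 40.8 RPKM in lung. Limch1 and Mfap4 were lung-higher (33.3% of the 6 listed, beside 9.58% of all genes), and none was vesicle-higher. Of the 6, 4 ranked at percentile 50 or above in each vesicle library. The list medians were 66.7 and 74.9 in vesicles and 87.8 and 87.6 in lung.

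Macrophage markers were present in both mutant-labelled vesicle libraries, whose cultures are labelled mesenchymal. Of 13 listed markers, 11 in vesicle library 1 and 10 in vesicle library 2 reached 10 RPKM, and none was at 0. Spp1 (osteopontin, made by macrophages and also by stromal cells) had 8633 and 3648 RPKM in vesicles and 66.2 and 114 RPKM in lung. Gpnmb, a glycoprotein of lipid-laden macrophages, had 559 and 192 RPKM in vesicles and 21.4 and 4.36 RPKM in lung. Cd68 had 275 and 203 RPKM in vesicles and 50.03 and 23.7 RPKM in lung. For these 3 genes every vesicle value exceeded both lung values. None of the 13 markers passed the 25-point rule in either direction, beside 8.37% and 9.58% of all genes. Without vesicle library 1, 2 were vesicle-higher and 2 lung-higher, beside 1476 and 1452 of the 8096 genes. Without vesicle library 2, 2 were vesicle-higher and none lung-higher, beside 1714 and 1705 of the 8096 genes. The complement gene C1qb had 199 and 21.4 RPKM in vesicles and 36.1 and 29.9 RPKM in lung. Cd68 and C1qb were chosen after their values were seen. Among the 13 listed, Csf1r had the lowest mean gap, and its values are not given here. Spp1, Gpnmb and Cd68 therefore do not stand for the whole list. The median gap of the list was 15.4 points in mutant-labelled and -8.7 in wild-type samples. The mutant-labelled value was 21.81 points without lung library 1 and 7.19 without lung library 2. Wild-type vesicle libraries were split. Cd68 stood at 0.178, 105, 101 and 9.56 RPKM there and Spp1 at 115, 2480, 3110 and 24.9 RPKM, so wild-type vesicle libraries 2 and 3 resembled the mutant-labelled ones and libraries 1 and 4 did not. Summed over the 13 markers, mutant-labelled vesicles held 10860 and 5075 RPKM and wild-type vesicles 217 to 4188. Spp1 alone made up most of the larger sums, with 8633 and 3648 RPKM in mutant-labelled vesicles and 2480 and 3110 RPKM in wild-type vesicle libraries 2 and 3. Among the 5 markers not listed, no level is read. The part of these markers' cells in the results that follow was not tested.

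**Figure D4:**
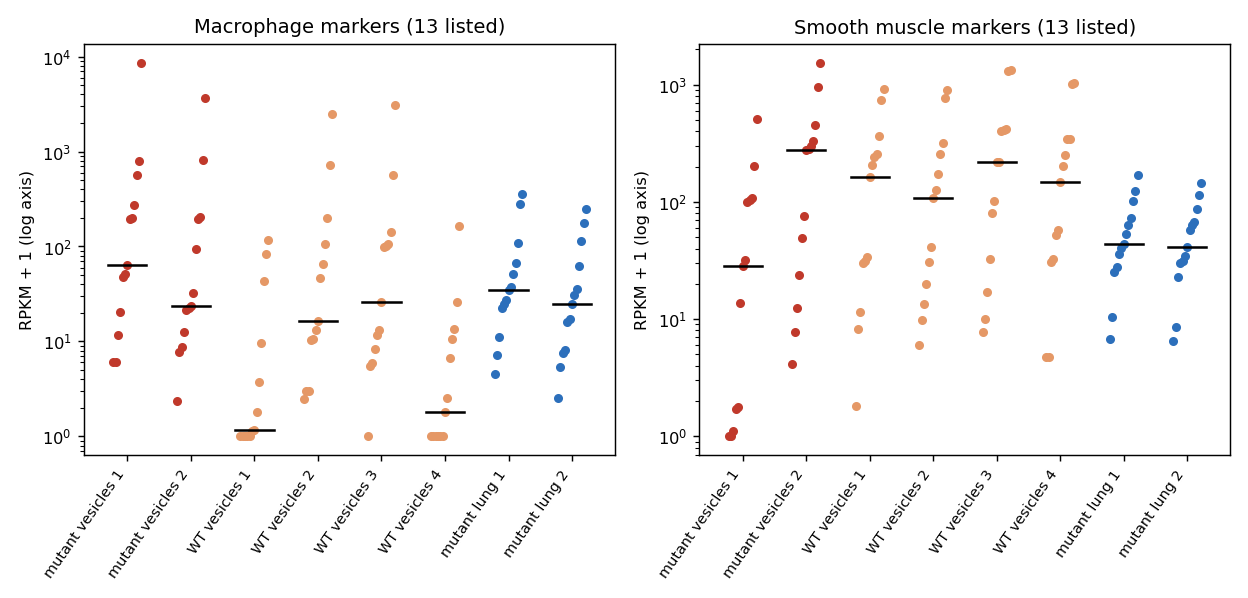
RPKM + 1 on a log axis of the 13 listed macrophage markers (left) and the 13 listed smooth muscle markers (right) in each mutant-labelled vesicle library (red), wild-type vesicle library (orange) and mutant-labelled lung (blue), with a point for each gene and a bar at the median. The macrophage medians were 62.7 and 22.9 in mutant-labelled vesicles and lay under 1 in wild-type vesicle libraries 1 and 4, and the smooth muscle median was lowest in mutant-labelled vesicle library 1, at 27.1.

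Markers of the remaining lung cells were mostly missing from the vesicle table. It listed 3 of 17 endothelial markers, 6 of 16 type 1 and 4 of 17 type 2 alveolar markers, 2 of 12 club cell, 3 of 13 ciliated cell and none of the 10 B cell markers. Genes among the highest in the mutant-labelled lungs were not listed there. Scgb1a1, the club cell secretoglobin, had 80766 and 43646 RPKM in lung, and Sftpc, surfactant protein C, had 13896 and 8967 RPKM. Cbr2, Cyp2f2, Sftpb, Cd74, Sftpa1 and Ager followed, the last with 821 and 1044 RPKM. Of 370 genes with at least 100 RPKM in both lungs, 54 (14.6%) were not listed. In the endothelial list Eng (endoglin) had 1.81 and 2.82 RPKM in vesicles and 109 and 198 RPKM in lung. Cdh5 and Cldn5, the defining junction genes of endothelium, were not listed. The vesicle table holds only genes whose mean reached 2.003 RPKM in at least 1 vesicle genotype, and no level is read from a missing entry.

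Genes of the matrix were called in both directions. Of 28 matrix glycoproteins and modifiers, 6 (21.4%) were vesicle-higher and 3 (10.7%) lung-higher, beside 8.37% and 9.58% of all genes, so the lung-higher share was near that of all genes. The counts were 8 and 4 without vesicle library 1, beside 1476 and 1452 of the 8096 genes. They were 7 and 5 without vesicle library 2, beside 1714 and 1705. Lox (lysyl oxidase, which cross-links collagen and elastin) had 76.7 and 146 RPKM in vesicles and 9.33 and 12.02 RPKM in lung. Tnc (tenascin C) had 20.6 and 25.8 RPKM in vesicles and 3.56 and 3.85 RPKM in lung. Vesicle-higher too were Thbs2, Fbln2, Mfap5 and Vcan, and every vesicle value of these genes exceeded every lung value. Loxl1, a relative of Lox for elastic fibres, had 0.172 and 6.08 RPKM in vesicles and 38.8 and 51.2 RPKM in lung. Mfap4, a protein of elastic fibres, had 0 and 11.01 RPKM in vesicles and 137 and 279 RPKM in lung, and Tgfbi was the third lung-higher member. Lox and Loxl1 were called in opposite directions.

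The vesicle table listed 12 of 44 collagen genes, with 3 vesicle-higher, beside 8.37% of all genes, and 1 lung-higher (8.33%, beside 9.58%). These counts were 5 and 2 without vesicle library 1, beside 1476 and 1452 of the 8096 genes. They were 3 and 2 without vesicle library 2, beside 1714 and 1705. Col8a1, a short-chain collagen of vessel walls, had 31.4 and 24.1 RPKM in vesicles and 3.41 and 4.63 RPKM in lung. Col12a1 had 16.8 and 7.99 RPKM in vesicles and 2.295 and 3.8003 RPKM in lung, and Col5a2 was the third. The chains of type I collagen were not called. Col1a1 had 16.6 and 41.2 RPKM in vesicles and 50.4 and 65.2 RPKM in lung, and Col1a2 had 35.8 and 8.604 RPKM in vesicles and 33.3 and 45.1 RPKM in lung. Basement membrane Col4a1 had 1.26 and 14.6 RPKM in vesicles and 96.3 and 145 RPKM in lung, short of the limit only through the spread of the vesicles. Col6a1, the lung-higher member, had 6.97 and 0 RPKM in vesicles and 55.03 and 69.98 RPKM in lung.

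Among 21 matrix proteases and inhibitors 4 (19.0%, beside 8.37% of all genes) were vesicle-higher and 1 (4.76%, beside 9.58%) lung-higher. Without vesicle library 1 the counts were 6 and 1, beside 1476 and 1452 of the 8096 genes. Without vesicle library 2 they were 6 and 2, beside 1714 and 1705. Timp1, an inhibitor of metalloproteases, had 160.03 and 216 RPKM in vesicles and 7.47 and 3.99 RPKM in lung, and 73.9 to 254 RPKM in wild-type vesicles. Mmp12, the macrophage elastase, had 74.1 and 51.5 RPKM in vesicles and 11.9 and 2.31 RPKM in lung. Adam8, a protease of leukocytes, had 87.96 and 68.03 RPKM in vesicles and 12.1 and 6.29 RPKM in lung. Wild-type vesicles had 1.58, 39.6, 13.9 and 0.822 RPKM of Mmp12 and 0, 2.17, 27.3 and 0 RPKM of Adam8. Both genes were low in wild-type vesicle libraries 1 and 4, where Cd68 and Spp1 were low. Adam8 was also low in library 2, where Cd68 and Spp1 were high. Adam12 was the fourth vesicle-higher member, at 4.64 and 2.31 RPKM. Adam10, a broadly expressed sheddase, had 0.583 and 0.728 RPKM in vesicles and 23.2 and 26.9 RPKM in lung.

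Growth hormone acts through Ghr, JAK2 and STAT5 on Igf1, whose product is held by binding proteins and freed by the protease Pappa. Of 14 listed genes of this pathway, 2 (14.3%, beside 8.37% of all genes) were vesicle-higher, namely Igf1 and Pappa. Lung-higher were 4 (28.6%, beside 9.58%), namely Igfbp2, Igfbp4, Igfbp6 and Socs3. The vesicle-higher count was 4 without vesicle library 1 and 3 without library 2, beside 1476 and 1714 of the 8096 genes. The median gap of the list, 4.58 points with both libraries, was -0.04 and -4.98 points in these settings. Pappa had 21.3 and 8.601 RPKM in vesicles and 0.249 and 0.174 RPKM in lung. Igfbp4, the substrate of Pappa, had 4.67 and 1.49 RPKM in vesicles and 44.5 and 49.9 RPKM in lung. Igfbp2 had 2.17 and 7.43 RPKM in vesicles and 156 and 125 RPKM in lung. The members were thus called in both directions. Wild-type libraries gave the same call for Igf1, Pappa, Igfbp4 and Igfbp6. Socs3, a feedback inhibitor of JAK signalling, had 0.198 and 0 RPKM in vesicles and 15.3 and 13.97 RPKM in lung. The receptor gene Igf1r had 0.128 and 14.1 RPKM in vesicles and 8.44 and 9.86 RPKM in lung, and its groups overlapped.

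The listed genes of cell division, 18 of 27, ranked higher in vesicles than in lung, though not high in vesicles. Listing needed a mean of 2.003 RPKM in a vesicle genotype but no level in lung, so it favours members higher in vesicles. Of the 18 listed, 7 (38.9%, beside 8.37% of all genes) were vesicle-higher and none lung-higher, with a median gap of 21.7 points. Over the 12 with a mean of at least 2 RPKM in both vesicle genotypes the median gap was 14.99 points. Median percentiles of the 18 were 43.5 and 37.4 in vesicles and 6.738 and 8.998 in lung. Their median levels were closer, at 2.22 and 3.47 RPKM in vesicles and 1.70 and 2.16 RPKM in lung. Mki67, a marker of cycling cells, had 25.1 and 9.24 RPKM in vesicles and 1.55 and 1.77 RPKM in lung. Ube2c, which works with the mitotic ubiquitin ligase, had 37.7 and 6.88 RPKM in vesicles and 1.202 and 1.36 RPKM in lung. Tpx2, a spindle protein, had 31.4 and 3.06 RPKM in vesicles and 0.929 and 1.08 RPKM in lung. Vesicle library 1 was the higher for these 3 genes. Ccnb2, with 0 and 34.1 RPKM, and 3 further members were at 0 in vesicle library 1. Top2a, Ccnb1, Birc5 and Kif20a completed the 7 at low levels. RPKM of Top2a, Ccnb1 and Kif20a overlapped between vesicles and lung although the ranks did not, as with 2.57 and 4.09 RPKM of Kif20a in vesicles and 3.04 and 3.21 RPKM in lung. Histone genes share near-identical copies that counting can split. Of 43 listed, 6 (14.0%, beside 8.37% of all genes) were vesicle-higher and 2 (4.65%, beside 9.58%) lung-higher, and 20 were at 0 in vesicle library 1. The histone counts were 19 and 2 without vesicle library 1, beside 1476 and 1452 of the 8096 genes. They were 15 and 8 without vesicle library 2, beside 1714 and 1705. The median gap of the histone list, 22.5 points, was 2.60 points without vesicle library 2.

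Immediate early genes, whose transcription needs no new protein, ranked lower in vesicles. Of 11 listed, 6 (54.5%, beside 9.58% of all genes) were lung-higher and 1 (9.09%, beside 8.37%) vesicle-higher. The median gap was -46.3 points in mutant-labelled and -16.8 in wild-type samples. Without vesicle library 1 or 2, 7 or 6 were lung-higher, beside 1452 or 1705 of the 8096 genes, and 1 or 2 vesicle-higher, beside 1476 or 1714. Jund had 0.995 and 0.415 RPKM in vesicles and 134 RPKM in both lungs. Jun had 4.67 and 0 RPKM in vesicles and 80.3 and 98.4 RPKM in lung. Ier3 had 3.04 and 4.22 RPKM in vesicles and 114 and 124 RPKM in lung. Klf4, Zfp36 and Btg2 were the other lung-higher members, and no vesicle value of the 6 reached a lung value. Myc, a growth-promoting factor, was vesicle-higher, with 22.8 and 6.47 RPKM in vesicles and 3.21 and 3.25 RPKM in lung.

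Transcription factors that pattern the lung were mostly not listed, 15 of 25. Of those listed, 1 was vesicle-higher and 2 were lung-higher, beside 8.37% and 9.58% of all genes. The counts were 1 and 3 without vesicle library 1, beside 1476 and 1452 of the 8096 genes. They were 3 and 5 without vesicle library 2, beside 1714 and 1705. Of the 10 listed, Prrx1, a homeobox factor of limb and facial mesenchyme, was vesicle-higher at 75.1 and 4.47 RPKM, with 2.17 and 1.87 RPKM in lung. Tbx3 had 0.0865 and 5.58 RPKM in vesicles and 22.7 and 32.3 RPKM in lung, and Hoxa5 had 0.916 and 1.27 RPKM in vesicles and 24.2 and 27.4 RPKM in lung. The T-box genes Tbx15 and Tbx3 were therefore called in opposite directions. Of 13 listed chemokine and cytokine genes 2 (15.4%, beside 8.37% of all genes) were vesicle-higher and 1 (7.69%, beside 9.58%) lung-higher. The vesicle-higher ones were Ccl2, which draws monocytes, and Csf1, the growth factor of macrophages. Their count was 6 without vesicle library 1 and 4 without library 2, settings that called 1476 and 1714 of the 8096 genes vesicle-higher. Csf1 had 92.9 and 36.3 RPKM in vesicles and 12.5 and 10.4 RPKM in lung. Ccl2 had 13.1 and 22.1 RPKM in vesicles and 1.79 and 0.878 RPKM in lung, and its wild-type vesicle values, 113, 137, 82.2 and 119.95 RPKM, all lay above the mutant-labelled ones. Cxcl14 had 0.314 and 0 RPKM in vesicles and 72.7 and 99.6 RPKM in lung. Of 16 interferon-response genes 3 (18.8%, beside 8.37% of all genes) were vesicle-higher and none (beside 9.58%) lung-higher. Ifit1 led them with 60.6 and 38.2 RPKM in vesicles and 5.17 and 6.91 RPKM in lung. The vesicle-higher count was 10 without vesicle library 1, beside 1476 of the 8096 genes. Without vesicle library 2, 3 were vesicle-higher and 3 lung-higher, beside 1714 and 1705 of all genes. The median gap of the list, 8.65 points, was -2.57 points without vesicle library 2.

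The RNAs of genes for making vesicles did not rank higher in vesicles. Of 28 listed, none was vesicle-higher, beside 8.37% of all genes. Lung-higher were 7, beside 9.58% of all genes, namely Tspan4, Vps4a, Chmp1a, Chmp4b, Rab27a, Rab5a and Rab11a, which act in sorting and release of endosomal vesicles. Without vesicle library 1 or 2 the lung-higher count was 8 or 11, beside 1452 or 1705 of the 8096 genes. Rab27a, needed for docking of the vesicles' parent endosomes, was at 0 in both vesicle libraries and at 22.7 and 21.4 RPKM in lung. The tetraspanin genes Cd63, with 92.3 and 204 RPKM in vesicles and 166 and 99.8 RPKM in lung, and Cd81, with 35.8 and 147 RPKM in vesicles and 97.8 and 120.2 RPKM in lung, overlapped. Rab7, a GTPase of late endosomes, had 361 and 415 RPKM in vesicles and 114 and 122 RPKM in lung. These are RNA levels and do not measure the vesicle proteins.

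Among genes that every cell uses, some lists held their rank and others ranked lower. The 81 listed cytosolic ribosomal protein genes had a median gap of -0.1 points and 1 lung-higher member, Rpl7l1. Of 76 nuclear genes of the respiratory chain 12 (15.8%, beside 9.58% of all genes) were lung-higher and none (beside 8.37%) vesicle-higher. Their median gap was -23.8 points. That gap was -31.2 points in pair 1 and -8.7 in pair 2, where a pair is the vesicle and lung library of the same number. Without vesicle library 1 or 2 the lung-higher count of this list was 17 or 42, beside 1452 or 1705 of the 8096 genes. Of 48 splicing genes 9 (18.8%, beside 9.58% of all genes) were lung-higher and none (beside 8.37%) vesicle-higher. With vesicle library 1 alone 6 splicing genes were vesicle-higher and 23 lung-higher, beside 1714 and 1705 of the 8096 genes. In the proteasome list 6 of 41 (14.6%, beside 9.58% of all genes) were lung-higher, and 7 or 16 without vesicle library 1 or 2, settings that called 1452 and 1705 of the 8096 genes lung-higher. Genes at 0 in vesicle library 1 were most frequent in the shortest length class, and the part of length in these lists was not tested.

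**Figure D5:**
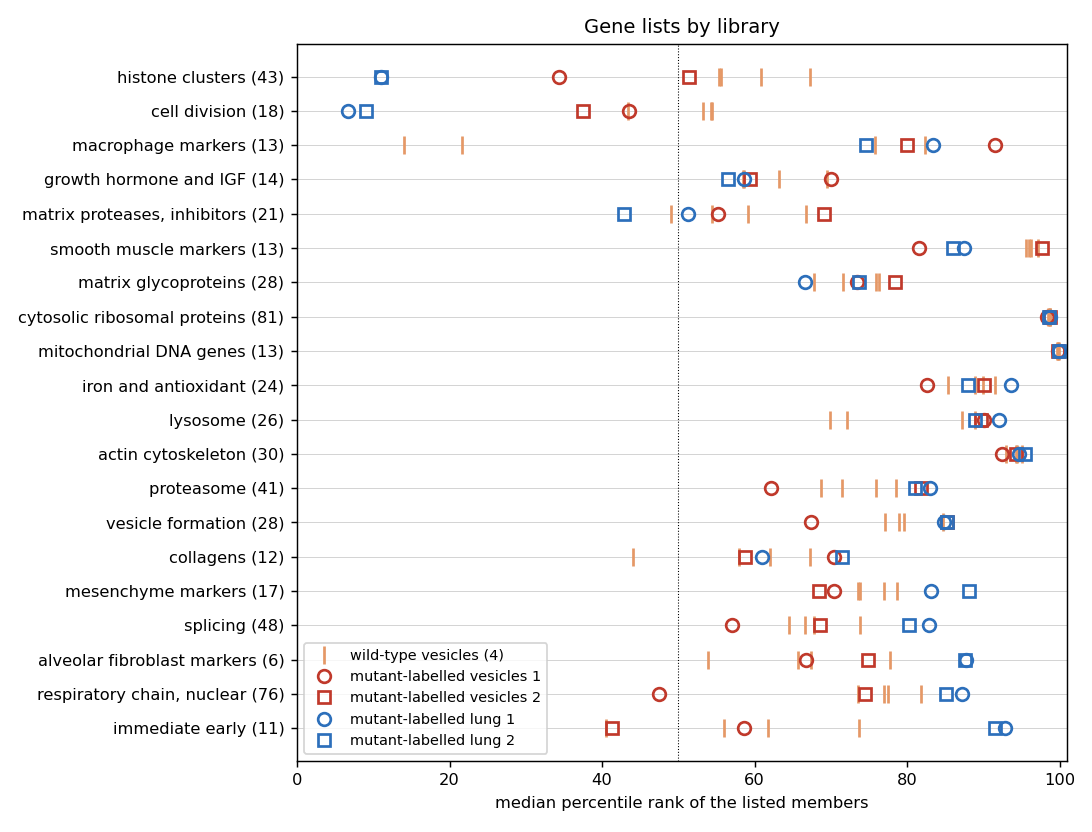
Median percentile rank of the listed members of 20 gene lists (number of members in brackets) in each mutant-labelled vesicle library (red), mutant-labelled lung (blue) and wild-type vesicle library (orange ticks), sorted by the median gap. Cell division genes ranked higher in vesicles than in lung, immediate early and nuclear respiratory chain genes ranked lower, and ribosomal protein and mitochondrial DNA genes stood at the top in every library.

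Wild-type gaps were set beside the mutant-labelled ones. Across the 8096 genes the 2 gaps had a Spearman correlation of 0.734, given as a description over genes that share tables and length. Both gaps subtract lung ranks, which correlated at 0.982 to 0.992 between the genotypes, so this value is partly built in. Vesicle ranks correlated with those of wild-type vesicles at 0.358 to 0.426 for mutant-labelled library 1 and 0.564 to 0.602 for library 2. Wild-type libraries, with 4 against 4 and so a stricter rule, called 528 genes (6.52%) vesicle-higher and 401 (4.95%) lung-higher. Without the limit, wild-type ranks did not overlap in 2291 genes (28.3%) with vesicles higher and 1909 (23.6%) with lung higher. Of the vesicle-higher genes 297 were called in both genotypes, 43.8% of the mutant-labelled and 56.2% of the wild-type list. Of the lung-higher genes 132 were called in both, of 776 mutant-labelled and 401 wild-type calls, and 536 of the 776 mutant-labelled lung-higher genes (69.1%) had a mean of at least 2 RPKM only in wild-type vesicles. No gene was called in opposite directions by the genotypes.

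The difference between the genotypes' gaps was tested in 7413 genes with limma, and none (0.00%) had an adjusted p under 0.05, although 758 (10.2%) had an unadjusted p under 0.05. The smallest adjusted p was 0.203. The median SE of a gene's difference was 0.964 on the log2(RPKM + 1) scale. Ndufa2, a subunit of respiratory complex I, was at 0 in both mutant-labelled vesicle libraries, at 21.5, 50.99, 44.1 and 19.4 RPKM in wild-type vesicles and at 71.5 and 62.1 RPKM in the mutant-labelled lungs. Its difference was -5.13 (SE 0.82, 95% interval -6.89 to -3.36, limma adjusted p = 0.203). Snx1, a sorting nexin of endosomes, had 63.9 and 38.1 RPKM in mutant-labelled vesicles and 0.103, 2.32, 0.768 and 2.09 RPKM in wild-type vesicles, with a difference of 4.54 (SE 0.78, 95% interval 2.87 to 6.21, limma adjusted p = 0.203). The vesicle table lists genes with a mean of at least 2.003 RPKM in 1 genotype or more, and Ndufa2 passed only through wild type and Snx1 only through the mutant-labelled mean, so the lack of overlap between the genotypes is no support for either. Arl4c, a small GTPase, was the other of the 8 smallest-p genes with a positive difference, with 37.8 and 15.6 RPKM in mutant-labelled and 0.325, 0.781, 1.43 and 0.0337 RPKM in wild-type vesicles, and was likewise listed only through the mutant-labelled mean. The remaining 5, Psma1, Rpp30, Lonp1, Rab1b and Lyar, had negative differences of -3.25 to -4.19, and each was at 0 in at least 1 mutant-labelled vesicle library. Spp1 had a difference of 3.89 with a limma adjusted p of 0.627. Without mutant-labelled vesicle library 2, which leaves library 1 alone and assumes that it varies like the other vesicle libraries, 218 genes passed (81 higher, 137 lower). Without library 1 no gene passed in limma (467 at an unadjusted p under 0.05).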

How the data were processed

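RNA was sequenced from vesicles of cultured cells and from whole lung. TopHat2, HTSeq and mm9 are named in the submitters' processing notes. Tool versions, gene annotation and strand setting are not known from the labels. The authors deposited 1 table per source, whose values were taken as RPKM from the numbers themselves: multiplied by GENCODE M1 exon length, 49.8% to 62.6% of low values per library lay within 0.02 of a whole multiple of 1 step, and that step gave the depth. Value columns without a sample numbered 0. Symbols turned into dates, 15 in the vesicle table and 27 in the lung table, were restored from gene identifiers.

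Percentile ranks over the shared genes used average ties, with no test across tables. The difference of gaps between genotypes used limma 3.58.1 (R 4.3.3) on log2(RPKM + 1), for genes with at least 1 RPKM in 2 libraries of each table, with weights per source, Benjamini-Hochberg adjustment and a threshold of 0.05. Both steps were tested on simulated data. Other steps used Python 3.11.15, and mt-Rnr2 was aligned with blastn 2.17.0. Other limits, pseudocounts, filters, weights and left-out libraries were tried.

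The members, the 44 gene lists and the tests were chosen with earlier results of these data known. Named genes are Tbx4, Ghr, Col1a1 and Col1a2, the 12 largest gaps each way at 10 RPKM or more, the 8 highest genes per source, the extreme and the highest members of each list, the 8 genes of smallest p in the genotype test and the 8 highest lung genes outside the vesicle table. Any other named gene was chosen after its values were seen.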

Additional observations from a re-analysis of the deposited data

Results flagged for a closer look

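A lone library stood apart from the other 3 of its wild-type group in 14 of 103 groups tested. The rule flags about 1 in 20 only for normally distributed values. Genes were tested on plain RPKM, often near 0, where 1 library with reads is enough for a flag. The 14 are therefore not read as an excess over chance. None of these is a mutant-labelled library, whose groups of 2 cannot be tested this way. In wild-type vesicle library 3, Akr1c18 had 7.694 RPKM (others 0 to 0.766), Igf1 91.08 (others 35.1 to 36.9), Gm11175 25.87 (others 0.411 to 2.76), Tmem100 8.759 (others 0 to 0.209) and Acvrl1 8.263 (others 0 to 0.838). In wild-type vesicle library 1, Scgb3a1 had 99.31 RPKM (others 0), Ly6c1 6.646 (others 0.2503 to 1.02), and the median percentile of cell division genes was 43.35 (others 53.25 to 54.48). Atp1b1 had 23.86 RPKM in wild-type vesicle library 2 (others 0 to 0.229), and Igfbp6 had 11.64 RPKM in wild-type vesicle library 4 (others 0 to 1.21). In wild-type lung library 3 the median percentile was 78.57 for macrophage markers (others 65.13 to 66.22) and 22 for chemokine and cytokine genes (others 3 to 5.25). The median percentile was 95.12 for actin genes in wild-type lung library 1 (others 95.50 to 95.57) and 59.81 for lung transcription factors in wild-type lung library 4 (others 62.67 to 63.17). Of 71 results compared between genotypes none had every library of one genotype moving against every library of the other.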

How the results depend on the processing

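Calls were followed across settings only for Ghr, Col1a1, Col1a2, the genes with the largest gaps each way and the highest genes per source. None of these calls changed direction. The called genes among them were those chosen for the largest gaps. Leaving out 1 library cannot narrow the smallest gap that the rule uses, so those settings could not have reversed a call and do not test it. The other named genes were not followed. Some list medians, which carry no call, changed sign. Among the lists described, the median gap of growth hormone and IGF genes, 4.58 points, was -0.04 and -4.98 without vesicle library 1 and 2. That of interferon-response genes, 8.65, was -2.57 and that of collagens, -8.67, was 1.48 without vesicle library 2. That of smooth muscle markers, 1.12, was -8.55 without vesicle library 2 and -3.74 among genes with exons of at least 2000 bases. That of matrix proteases and inhibitors, 3.34, was -0.03 without vesicle library 2 and -0.54 among genes with at least 2 RPKM in both vesicle genotypes. That of matrix glycoproteins, 0.84, was -0.98 without vesicle library 2 and -1.53 without lung library 1. That of alveolar fibroblast markers, -19.54, was 1.80 under that length limit. The count of vesicle-higher genes, 678, was 1623 with a limit of 10 points, 238 with 40 points, 415 among the 5048 genes with a mean of at least 2 RPKM in both vesicle genotypes (380 of them among the 678) and 318 with at least 10 RPKM in both vesicle libraries. The count of lung-higher genes, 776, was 1550, 362 and 412 under the first 3 of these (196 of the 412 among the 776). Centred log2(RPKM + 1) with a limit of 2 gave 497 vesicle-higher genes, of which only 308 were among the 678, and 480 lung-higher genes, 471 of them among the 776. Centred log2(RPKM + 5) with the same limit gave 255 vesicle-higher genes, 153 of them among the 678, and 155 lung-higher genes, 145 of them among the 776. Leaving out 1 library gave 760 to 1714 vesicle-higher and 857 to 1705 lung-higher genes, the highest without vesicle library 2. Without vesicle library 2 the lung-higher count moved from 12 to 42 for nuclear respiratory chain genes, from 9 to 23 for splicing genes and from 6 to 22 for mitochondrial ribosomal protein genes, beside 776 to 1705 for all genes. The cause of these shifts was not tested, except that fewer libraries or a lower limit admit more genes. Genes whose genotype difference passed, 0 by limma, numbered 1 with a pseudocount of 0.25, 1 with a filter of 10 RPKM, 16 without weights and 5 on percentile ranks, and 0 to 218 with 1 library left out. The replicate block, by number or by the shared column code, also gave 0, and requiring only both same-numbered pairs gave 753 and 849 genes. The numbers and codes are not known to pair samples. Vesicle and lung libraries of the same column code had deviations from their group means correlated at -0.0616 to 0.0971. Deviations in a group of 2 mirror each other, so both mutant-labelled pairs gave the same value, -0.0437. Of 6 vesicle libraries, 3 correlated best with the lung of their own code among all lungs. The number to be met without pairing was not worked out, so pairing stays unknown. Of the other values, 212 gaps of the followed genes counted as unchanged and 16 as moved. A called gene counted as unchanged if its call held, whatever the size of the shift, and leaving out a library could not undo a call. An uncalled gene did if its gap shifted by no more than the replicate spread. By that spread 233 list medians were unchanged and 56 moved. Depth limits the mutant-labelled vesicles most, at 1.75 and 1.68 M reads.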
